A study of Mus musculus with 22 samples.

Results

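The translation initiation factors were taken as every gene whose mouse symbol begins with Eif1, Eif2, Eif3, Eif4, Eif5 or Eif6, without Eif2d, the eIF2 kinases (Eif2ak1 to Eif2ak4) and the eIF4E-binding proteins (Eif4ebp1 to Eif4ebp3). The rule found 43 of the 10516 genes of the files, and it used names only. Start codon selection and subunit joining was represented by 8 genes (Eif1, Eif1a, Eif1ad, Eif1ax, Eif1b, Eif5, Eif5b and Eif6). There were 4 genes of eIF2 (Eif2s1, Eif2s2, Eif2s3x and, by name, Eif2a), 5 of eIF2B (Eif2b1 to Eif2b5), 13 of eIF3 (Eif3a to Eif3i, Eif3j1, Eif3k, Eif3l and Eif3m), 11 of eIF4 (Eif4a1, Eif4a2, Eif4a3, Eif4b, Eif4e, Eif4e2, Eif4enif1, Eif4g1, Eif4g2, Eif4g3 and Eif4h) and 2 of eIF5A (Eif5a and Eif5a2).

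NIH3T3 cells, a line of mouse embryonic fibroblasts, had been transduced with lentiviral shRNAs and selected with puromycin. Denr knockdown cells carried shRNA1 or shRNA2 against Denr, with 3 lysates each, and control cells carried a scramble shRNA (3 lysates) or an shRNA against Gfp (2 lysates). All received cycloheximide, at 100 µg/ml for 2 min, before lysis, so that no lysate was free of virus, selection or drug. Each lysate came from a dish of its own and gave an RPF-seq library of ribosome footprints and an RNA-seq library, 22 in all, and the shRNAs of a cell pool were the only difference the labels name. Summed over CDS and 5′ UTR of the deposited genes, the RPF-seq libraries came to 10927303 to 21649878 reads and the RNA-seq libraries to 8514080 to 20109700 reads.

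Initiation on most mRNAs begins when eIF2 brings the initiator tRNA to the small ribosomal subunit, where eIF1, eIF1A, eIF3 and eIF5 help to place it. The cap-binding factors of the eIF4 group recruit this complex to the 5′ end of the mRNA, it scans to a start codon, and eIF5B then promotes the joining of the large subunit. DENR acts with MCTS1 after termination, when ribosomes that have translated an upstream open reading frame (uORF) are recycled or start again further downstream. eIF2B recharges eIF2 with GTP and is the point at which stress signals slow initiation.

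Of the fibroblast markers examined (Col1a1, Col1a2, Col3a1, Vim, Fn1, Pdgfrb, Thy1 and Lox), 8 of 8 were in the files, with Vim at 3834 to 4432 RPKM in RNA-seq. RPKM is a read count scaled to the length of the region and the size of the library. Of the markers of other cells, 1 of 4 for epithelium (Cdh1, at most 4.05 RPKM), 1 of 3 for endothelium (Cdh5, at most 1.10 RPKM) and 0 of 3 for leukocytes were in the files. Scramble and Gfp shRNA lysates had 188 ± 2.45 RPKM (SD, n = 3) and 169 ± 6.32 RPKM (SD, n = 2) of Denr RNA, of which 40.5 ± 5.32 RPKM (n = 3) was left with shRNA1 and 17.9 ± 2.70 RPKM (n = 3) with shRNA2. The R2 between replicates of an shRNA was 0.956 to 0.994 in RNA-seq and 0.981 to 0.992 in RPF-seq, and in no pair did the counts agree within sampling noise (chi-square per gene of at least 3.62, where counting alone gives about 1). The RNA-seq library of Denr shRNA1 replicate 1 stood apart: it held the highest value of all 11 lysates for 22 of the 43 factors and the lowest for 9, and for 35.6% and 19.7% of all genes.

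Many mRNAs of the translation machinery are TOP mRNAs, which begin with an uninterrupted run of pyrimidines and are translated under the control of mTOR. Of the 36 factors with a RefSeq promoter entry, 7 had a run of at least 8 pyrimidines (C or T in any order, on the coding strand) beginning within 10 bases of the annotated transcription start (19.4%), and so did 12.7% of 8357 genes of the files. The windows of 30 bases below are centred on the annotated start in GRCm38, so that transcription begins at base 16. They are shown for the 2 factors whose TE (translation efficiency) was lower in all knockdown lysates than in all controls, as in 1.32% of all genes. Beside them stand 2 factors with a long run whose TE did not separate in this way. Capitals mark the pyrimidine run as far as it lies in the window.
Eif3f at chr7:108934400-108934429, plus strand: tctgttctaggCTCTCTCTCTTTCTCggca
Eif4b at chr15:102073758-102073787, plus strand: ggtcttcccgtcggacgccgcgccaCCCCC
Eif2s3x at chrX:94212637-94212666, minus strand: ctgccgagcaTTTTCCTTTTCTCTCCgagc
Eif2b5 at chr16:20498802-20498831, plus strand: ccttcCTCTTTCTCTCCCTgcaactacacc
The run was 15 bases long in Eif3f, 16 in Eif2s3x, 14 in Eif2b5 and 7 in Eif4b. In Eif3f it reaches to within a few bases of the start codon, since the annotated 5′ UTR of its GENCODE transcript is only 15 nt long.

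A uORF was counted where an AUG in the 5′ UTR was followed by an in-frame stop codon after at least 1 further codon (9 nt or more). AUGs that share a frame and a stop codon were counted as separate uORFs. In the GENCODE transcript with the longest CDS, 14 of the 43 factors had such a uORF (32.6%), against 5212 of 10336 genes with a 5′ UTR (50.4%). The 5′ UTR behind the deposited values had a median of 184.5 nt in the factors and 220.0 nt in all genes. It often differs in length from that of the transcript searched here. An AUG followed at once by a stop codon was found in 0 of the 43 factors and in 6.10% of genes. The 14 factors held 33 uORFs of 9 to 327 nt, and most of these lay in mRNAs for start codon selection (Eif1, Eif1ad, Eif5 and Eif5b) and for the eIF4G scaffolds (Eif4g1, Eif4g2 and Eif4g3). Of 13 of these factors with a RefSeq transcription start, 4 had it downstream of every uORF (Eif1, Eif2s1, Eif2s3x and Eif4h), so that by this annotation their mRNA would begin after the uORF. The single uORF of Eif1, 21 nt long, is one of these. The short ones below lie downstream of the RefSeq start. They are shown as examples, because earlier work with synthetic reporters tied DENR to reinitiation after very short uORFs. The study of these cells found no relation between uORF length and the change in TE, but it left out the shortest uORFs. Start and stop codons are in capitals, and each uORF lies within 1 exon of the 5′ UTR. The 9 nt of Eif5a are the end of a longer uORF of 63 nt with the same frame and stop codon. They are thus not a separate short uORF. Other short uORFs downstream of the RefSeq start are not shown. Eif4g3 has uORFs of 9, 18 and 27 nt inside its 5′ UTR, and that of 9 nt is a separate short uORF. In Eif4g1 uORFs of 21 and 9 nt overlap the CDS.
Eif2s2 uORF at chr2:154892794-154892820, minus strand: ATGcaagagcctagtgcggtgctgTGA
Eif4enif1 uORF at chr11:3203129-3203152, plus strand: ATGgccacaggtgtggccggcTGA
Eif5a uORF at chr11:69920356-69920364, minus strand: ATGaagTGA

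Initiation favours an AUG with a purine 3 bases before it and a G just after it. Both were present in 18 of 42 factors whose CDS starts at AUG and has its context annotated, 1 of the 2 bases in 20, and neither in 4 (Eif1, Eif1b, Eif3b and Eif2b4). Over all genes the neither class held 6.40%. Eif1, whose product makes the ribosome reject weak start codons, and its paralog Eif1b thus start at an AUG in poor context, and Eif4g2 (DAP5) starts at GUG. These start sites, and beside them that of Eif5, an AUG with 1 of the 2 bases, are shown with the start codon in capitals.
Eif1 at chr11:100320121-100320135, plus strand: tcgtatcgtATGtcc
Eif1b at chr9:120492802-120492816, plus strand: tagtgtcgcATGtcc
Eif4g2 at chr7:111081542-111081556, minus strand: gccgccaaaGTGgag
Eif5 at chr12:111539607-111539621, plus strand: taagccaaaATGtct
The lengths of 5′ UTR and CDS in these transcripts equalled those behind the deposited values in 16 of 43 factors, so that the windows describe 1 annotated transcript, not necessarily the region that was counted.

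In control cells the initiation factors were abundant. Their median level was 179.6 RPKM in RNA-seq and 217 RPKM in RPF-seq, against 28.2 and 23.1 RPKM over all genes, and 22 of the 43 lay in the top 10% of genes by RNA. Together they took 1.499% ± 0.0343 (SD, n = 5) of the CDS reads of RNA-seq and 1.62% ± 0.0852 (SD, n = 5) of those of RPF-seq. Translation efficiency (TE) was the ratio of the CDS RPKM of RPF-seq to that of RNA-seq in the same lysate. Since the 2 assays were normalized separately, only differences in TE between genes or lysates can be read. TE was above the median gene in 33 of the 43 factors, and their median lay 0.33 above it on the log2 scale.

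**Figure D1:**
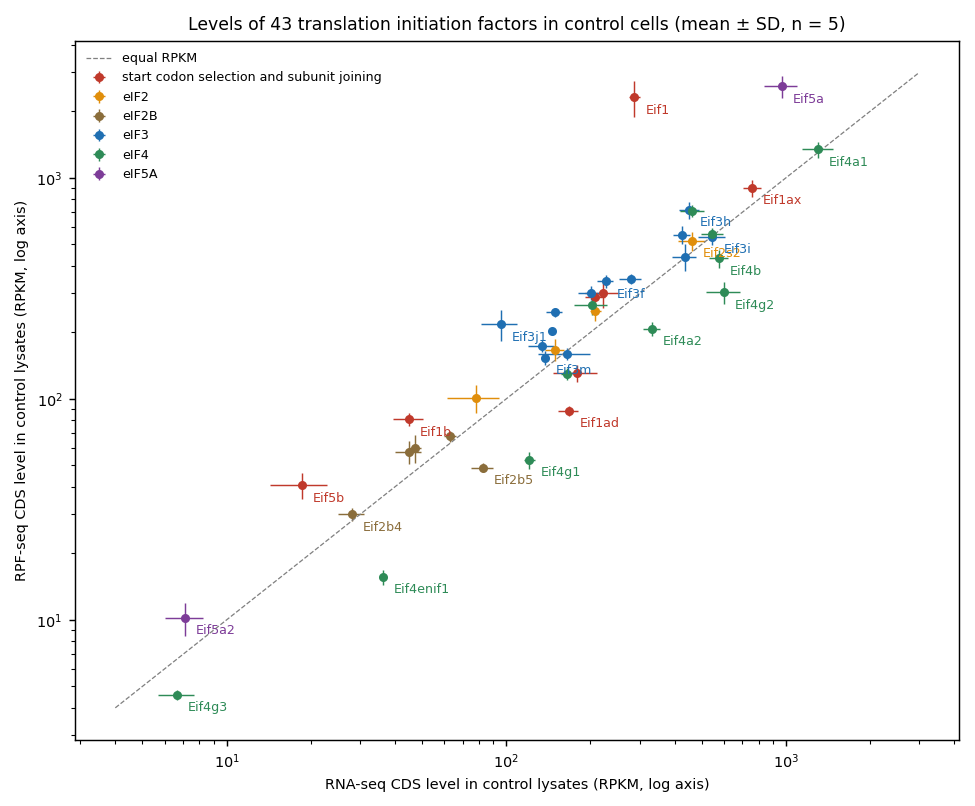
CDS level of each of the 43 factors in control lysates, RNA-seq on the x axis and RPF-seq on the y axis, both in RPKM on log axes, as mean ± SD over 5 lysates and coloured by group. Eif1 and Eif5a lie far above the line of equal RPKM and Eif4g1, Eif4g2 and Eif4enif1 below it.

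The most abundant RNA was that of Eif4a1, the helicase that unwinds 5′ UTRs, with 1308 ± 166 RPKM (SD, n = 5), although 99.2% of the 28-base stretches of its CDS also occur in other annotated transcripts, none of them coding, from which its reads cannot all be told apart. Eif5a, which helps ribosomes past difficult peptide bonds, had 968 ± 129.5 RPKM in RNA-seq and the highest footprint level of all factors, 2599 ± 301 RPKM. In its CDS 46.1% of the 28-base stretches recur in other transcripts that are not coding. Eif1 came next in RPF-seq with 2316 ± 434 RPKM, although its RNA was only 288 ± 12.6 RPKM. The log2 TE of Eif1 lay 3.06 ± 0.29 (SD, n = 5) above the median gene, at the percentile 99.9 of all genes, and that of Eif5a 1.503 ± 0.16 above it. The lowest RNA levels were those of Eif4g3 (6.67 ± 0.992 RPKM) and Eif5a2 (7.12 ± 1.10 RPKM), paralogs of Eif4g1 and Eif5a. These 2 neighbours in the order differed by less than their spread.

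Within the group for start codon selection, Eif1ax had the most RNA (759 ± 53.6 RPKM) and Eif5b the least (18.6 ± 4.28 RPKM). Eif5b, the GTPase of subunit joining, had a log2 TE 1.22 ± 0.35 above the median gene. In the eIF4 group, the scaffolds were far below the cap-binding protein and the helicase. Eif4g1 had 121 ± 5.36 RPKM of RNA and 52.9 ± 4.497 RPKM of footprints, against 546 ± 49.8 and 557 ± 38.1 RPKM for Eif4e. Of the CDS of Eif4e, 80.5% of the 28-base stretches recur in other transcripts that are not coding. The log2 TE of Eif4g1, of Eif4g2 and of Eif4enif1, the eIF4E transporter, lay 1.12, 0.91 and 1.14 below the median gene. Their TE was thus lower than that of most genes, in contrast to most of the factors.

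eIF3 is the largest of the initiation complexes and holds its subunits in equal number. Across the 12 core subunits (all but the loosely bound Eif3j1), RNA ranged 4.08-fold, from 134 ± 14.1 RPKM for Eif3b to 547 ± 59.95 RPKM for Eif3i. Footprints ranged 4.68-fold, from 153 ± 11.1 RPKM for Eif3m to 716 ± 64.3 RPKM for Eif3h. In the CDS of these 2, 65.0% and 48.4% of the 28-base stretches recur in other transcripts that are not coding. The coefficient of variation among the 12 subunits was 52.3 to 58.6% in the RNA-seq libraries of control lysates and 49.4 to 56.4% in the RPF-seq libraries, so that the spread was of the same order in both. Eif3j1 had the least RNA of the 13 (95.5 ± 13.975 RPKM), but 99.7% of the 28-base stretches of its CDS recur in Eif3j2, and its reads cannot be told from those of this copy.

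The 3 subunits of eIF2 showed the same pattern. Eif2s2 (the beta subunit) had 462 ± 50.5 RPKM of RNA, Eif2s3x (gamma) 208 ± 9.24 and Eif2s1 (alpha, whose phosphorylation slows initiation) 149 ± 11.6, a 3.10-fold range that was 3.10-fold in footprints too. These levels are uncertain in part, since 85.1%, 95.0% and 61.7% of the 28-base stretches of their CDS recur in other annotated transcripts. Eif2a, which binds initiator tRNA but is no subunit of eIF2, had the least of that group, 77.9 ± 16.4 RPKM. The 5 subunits of eIF2B were scarcer than those of eIF2, with RNA from 28.03 ± 2.97 RPKM (Eif2b4) to 82.5 ± 7.56 RPKM (Eif2b5). Their footprints spanned 30.03 to 67.8 RPKM, a 2.26-fold range against 2.94-fold in RNA. Eif2b5, the catalytic subunit and the one with the most RNA, had the lowest TE of the 5, at 0.67 below the median gene.

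Knockdown of Denr changed the RNA of 2 of the 43 factors, the CDS footprints of 2 and the TE of 1 at an adjusted p below 0.1 in limma's test with Benjamini-Hochberg adjustment over all genes. Among all genes 3.55% were called for RNA (2.68% higher, 0.865% lower), 10.0% for CDS footprints (5.47% higher, 4.55% lower) and 0.475% for TE. The members' shares, 2 of 43 and 1 of 43, rest on too few calls to be set apart from these. With the replicate number as a block, more factors and more of all genes were called for RNA and CDS footprints, as given below. Eif1 and Eif3f RNA rose, Eif1b footprints rose, Eif3a footprints fell and Eif3f TE fell. In such bulk lysates, fewer cells with an RNA and less of it per cell cannot be told apart. The share of CDS reads that the factors took together was 1.49% ± 0.0374 (SD, n = 6) in RNA-seq and 1.59% ± 0.0365 (SD, n = 6) in RPF-seq after knockdown, and it differed from control by less than the spread between lysates in both (exact two-sided permutation test, p = 0.716 and p = 0.457).

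**Figure D2:**
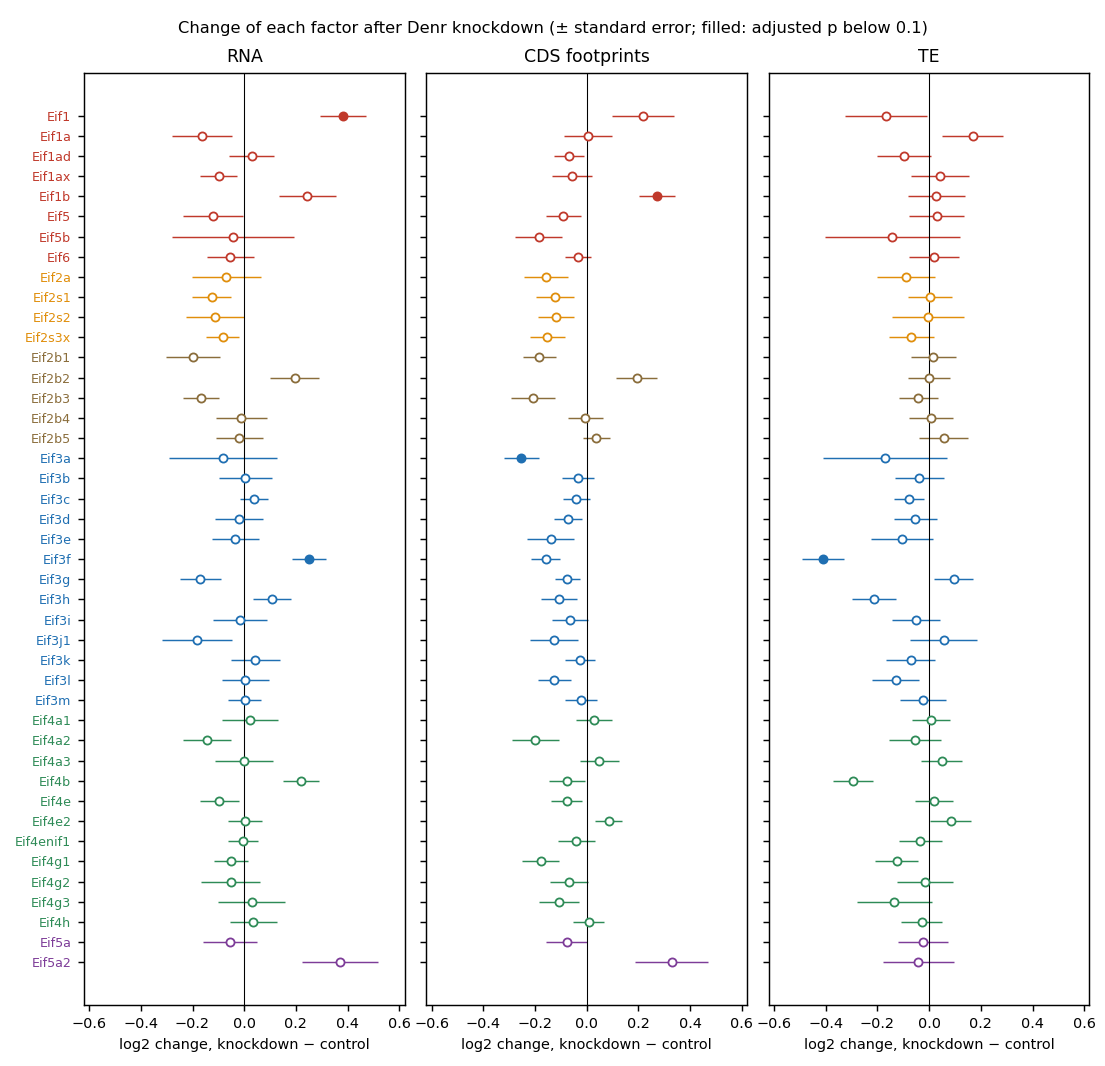
Change of each factor after Denr knockdown (mean of 6 knockdown minus mean of 5 control lysates, log2 scale, ± standard error of limma's fit) in RNA, CDS footprints and TE, with filled points for an adjusted p below 0.1. Most points lie within 0.2 of 0, and the filled ones are Eif1 and Eif3f (RNA), Eif1b and Eif3a (CDS footprints) and Eif3f (TE).

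In TE, 28 of the 43 factors were below 0 and the median change was −0.034, against −0.012 over all genes. An unadjusted p below 0.05 was found in 3 of the 43 (Eif3f, Eif4b and Eif3h), a share close to the 6.66% of all genes. These 3 are, with Eif3e, the initiation factors that the list of TOP mRNAs named from general knowledge. By the annotated starts only Eif3f of the 4 had a pyrimidine run of at least 8: Eif4b had 7, and the GENCODE transcripts of Eif3h and Eif3e begin with 2 and 0 pyrimidines. Of that list of 4, 1 passed the test in the lower direction and 0 in the higher, all 4 changes were negative, and their median was −0.25. The list was drawn up when earlier results of these data were known, and its direction is no independent evidence. Of the 7 factors with a run beginning near the annotated start, 5 were below 0 in TE with a median of −0.034. Without Eif3f the other 6 (Eif2b2, Eif2b5, Eif2s3x, Eif3l, Eif4e and Eif4enif1) ranged from −0.13 to 0.056, none past the test (smallest adjusted p = 0.937). The runs of Eif4e and Eif4enif1 end upstream of the annotated start. Of the 7, the GENCODE transcripts of Eif3f and Eif2s3x begin with 9 pyrimidines each and those of the others with at most 4 (Eif2b5). Most of the 7 are thus no clear TOP mRNAs by annotation.

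Eif3f (chromosome 7, 108934417 to 108942951, plus strand of GRCm38) encodes one of the MPN-domain subunits of eIF3. Its log2 TE was 0.71, 0.63 and 0.73 with scramble shRNA and 0.41 and 0.46 with Gfp shRNA. It was 0.032, 0.25 and 0.12 with Denr shRNA1 and 0.27, 0.11 and 0.28 with Denr shRNA2. The highest of the knockdown lysates was thus lower than the lowest control, as in 1.32% of all genes, and the Gfp lysates lay between scramble and knockdown. The change was −0.41 (standard error 0.081), a TE lower by 24.7%, with an adjusted p of 0.0629 (exact permutation test, p = 0.00216, the smallest that 6 against 5 lysates allow).

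Both sides of the ratio moved in Eif3f. Its RNA was 224, 221 and 214 RPKM with scramble, 252 and 221 RPKM with Gfp shRNA, 298, 263 and 271 RPKM with shRNA1 and 249.7, 273 and 263 RPKM with shRNA2. Its footprints were 367, 342 and 355 RPKM with scramble, 336 and 304 RPKM with Gfp shRNA, 305, 313 and 295 RPKM with shRNA1 and 301, 296 and 318 RPKM with shRNA2. RNA rose by 0.25 on the log2 scale (standard error 0.067, adjusted p = 0.0784), with 5 of 6 knockdown lysates above all controls. The change of footprints was −0.16 (standard error 0.056) and did not pass the test (adjusted p = 0.111).

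The Eif3f calls rested on few lysates. The TE call was kept without Denr shRNA1 replicate 1 or 2 or without Gfp replicate 1, and was lost without any of the other 8 lysates (Denr shRNA1 replicate 3, the 3 of shRNA2, Gfp replicate 2 and the 3 of scramble), with adjusted p of 0.118 to 0.229. With either Denr shRNA alone against all controls the change was −0.45 (shRNA1, adjusted p = 0.570) and −0.37 (shRNA2, adjusted p = 0.251). Centring each library on its median gave −0.39 (adjusted p = 0.135) for TE and 0.23 (adjusted p = 0.131) for RNA. The RNA call was kept without Denr shRNA1 replicate 1, shRNA2 replicate 1 or Gfp replicate 1 and lost without any of the other 8, with adjusted p of 0.118 to 0.214. The direction was the same in each of these fits. In the fit with a mean for each shRNA, Eif3f TE was lower with Gfp than with scramble shRNA by a log2 difference of −0.25 (standard error 0.10, adjusted p = 1.00), and it differed between the 2 Denr shRNAs by 0.085 (standard error 0.094, adjusted p = 0.972).

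**Figure D3:**
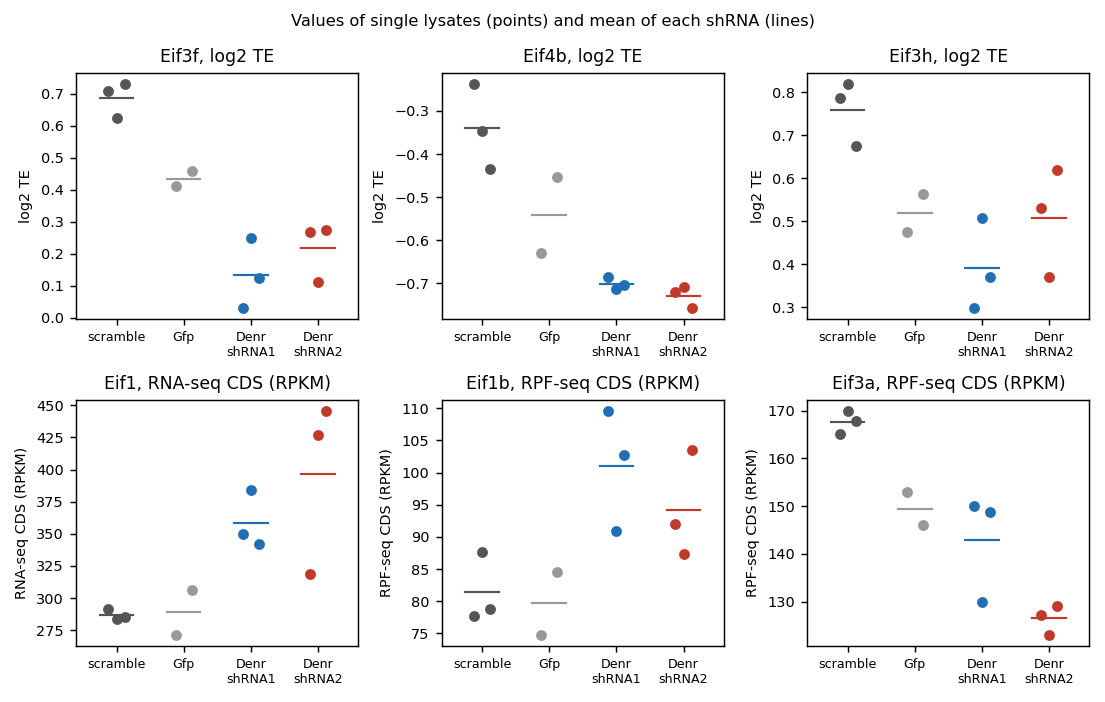
Values in single lysates (points, with a line at the mean of each shRNA) for the log2 TE of Eif3f, Eif4b and Eif3h, the RNA of Eif1 in RPKM and the CDS footprints of Eif1b and Eif3a in RPKM. In Eif3f and Eif4b all 6 Denr knockdown lysates lie below the 5 control lysates, and the Gfp lysates lie below those of scramble shRNA.

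Eif4b (chromosome 15, 102073773 to 102097173, plus strand) encodes an RNA-binding partner that stimulates the eIF4A helicase. Its log2 TE was −0.24, −0.35 and −0.43 with scramble and −0.63 and −0.45 with Gfp shRNA, and −0.68, −0.71 and −0.71 with shRNA1 and −0.72, −0.71 and −0.76 with shRNA2. The knockdown lysates spanned less than 0.1 and all lay below the controls, as in 1.32% of all genes. The difference of −0.29 (standard error 0.076) had an unadjusted p of 0.00199 and did not pass the adjusted test (adjusted p = 0.218). The RNA of Eif4b was 577 ± 44.6 RPKM (SD, n = 5) in control and 671 ± 33.4 RPKM (SD, n = 6) in knockdown lysates (log2 difference 0.22, adjusted p = 0.134), while its footprints were 432 ± 41.8 and 409 ± 24.1 RPKM (adjusted p = 0.525).

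Eif3h, the second MPN-domain subunit of eIF3, had a log2 TE of 0.79, 0.82 and 0.67 with scramble, 0.48 and 0.56 with Gfp shRNA, 0.30, 0.51 and 0.37 with shRNA1 and 0.53, 0.37 and 0.62 with shRNA2. The groups overlapped, and the difference of −0.21 (standard error 0.085) did not pass (adjusted p = 0.640). Of its CDS, 48.4% of the 28-base stretches recur in transcripts that are not coding. Eif3e differed by −0.10 (standard error 0.12, adjusted p = 0.996). Of the 43 factors, Eif3f was thus the only one called for TE.

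The elongation factors of the TOP class were set beside them. All 5 TE differences were negative, with a median of −0.32, and 1 of the 5 passed the test, Eef2, which moves the ribosome by a codon at a time, with a change of −0.44 (standard error 0.092, adjusted p = 0.0804). Eef1a1, Eef1g and Eef1b2 differed by −0.32, −0.34 and −0.27 and Eef1d by −0.074, none past the test. CDS footprints fell in 1 of the 5, Eef1b2 (−0.36, standard error 0.088, adjusted p = 0.0352). RNA of Eef2 rose by 0.35 (standard error 0.086, adjusted p = 0.0630), and its footprints differed by −0.096 (adjusted p = 0.365). As in Eif3f, RNA was higher while footprints were not. Relative 5′ UTR translation (footprints on the 5′ UTR over those on the CDS) rose in 2 of the 5, Eef1a1 (0.66, adjusted p = 0.0560) and Eef2 (0.50, adjusted p = 0.0879). Among all genes 0.475% were called for TE and 4.55% for lower CDS footprints, and 18.1% of genes with 5′ UTR coverage for higher relative 5′ UTR translation. The list of elongation factors too was chosen with earlier results in view.

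In the other groups no TE difference passed. The members with the lowest p were Eif1a in the start codon group (0.17, standard error 0.12), Eif2a (−0.089, standard error 0.11), Eif2b5 (0.056, standard error 0.094) and Eif5a2 (−0.041, standard error 0.14). Those with the highest p were Eif6 (0.018, standard error 0.096), Eif2s2 (−0.0043, standard error 0.14), Eif2b2 (−0.0016, standard error 0.081), Eif5a (−0.022, standard error 0.096), Eif3m (−0.024, standard error 0.089) and Eif4a1 (0.0079, standard error 0.073). For a factor of average spread a log2 difference of about 0.2 would be little more than 2 standard errors, since their median standard error was 0.092. Factors with an AUG uORF did not stand apart: the median TE difference was −0.031 in the 14 with a uORF (range −0.17 to 0.083) and −0.038 in the 29 without (range −0.41 to 0.17).

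Eif1 (chromosome 11, 100319885 to 100322096, plus strand) had the largest called change of RNA among the factors. Its RNA was 292, 284 and 285 RPKM with scramble and 272 and 306 RPKM with Gfp shRNA. It was 350.2, 384 and 342 RPKM with shRNA1 and 319, 427 and 445 RPKM with shRNA2. All 6 knockdown lysates lay above all controls, as in 2.63% of genes, and the 5 controls lay close together. The RNA rose by 0.38 on the log2 scale, or by 30.5% (standard error 0.089, adjusted p = 0.0462). The call was lost without shRNA2 replicate 2 (adjusted p = 0.102), scramble replicate 1 (adjusted p = 0.110) or scramble replicate 2 (adjusted p = 0.131), and with shRNA1 alone (0.32, adjusted p = 0.131).

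Eif1 footprints were less even. They were 2408, 2644 and 2759 RPKM with scramble, 1699 and 2070.5 RPKM with Gfp shRNA, 2544, 2648 and 3272 RPKM with shRNA1 and 2376, 2534 and 2619 RPKM with shRNA2. The difference between knockdown and control, 0.22 (standard error 0.12), did not pass (adjusted p = 0.287), while the 2 controls differed: Gfp was below scramble shRNA by −0.47 (standard error 0.12, adjusted p = 0.0575). Eif1 reads are uncertain in part, because 98.1% of the 28-base stretches of its CDS recur in other annotated transcripts, most of them of pseudogenes, and 45.1% in a coding transcript of Emd.

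Eif1b (chromosome 9, 120492232 to 120495330, plus strand), the paralog of Eif1, has a CDS of which 2.22% recurs elsewhere. Its footprints were 77.7, 87.6 and 78.8 RPKM with scramble, 74.8 and 84.6 RPKM with Gfp shRNA, 109.5, 91.0 and 103 RPKM with shRNA1 and 91.9, 87.3 and 103 RPKM with shRNA2. Of the knockdown lysates 5 of 6 lay above all controls. Footprints rose by 0.27 on the log2 scale (standard error 0.069, adjusted p = 0.0407), and the call was lost without scramble replicate 1 (adjusted p = 0.101), without scramble replicate 3 and Denr shRNA1 replicate 1 together (adjusted p = 0.1198) and with shRNA2 alone (0.22, adjusted p = 0.141). Its RNA, 44.9 ± 5.53 RPKM (SD, n = 5) and 53.3 ± 8.30 RPKM (SD, n = 6), differed by 0.24 (adjusted p = 0.299) and its TE by 0.028 (adjusted p = 0.999).

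Eif3a (chromosome 19, 60761117 to 60790658, minus strand) encodes the largest eIF3 subunit, the scaffold on which the others assemble. Its footprints were 165, 169.9 and 168 RPKM with scramble, 153 and 146 RPKM with Gfp shRNA, 149.9, 129.9 and 149 RPKM with shRNA1 and 127, 123 and 129 RPKM with shRNA2. Scramble was highest and shRNA2 lowest, and the lysates of Gfp shRNA and of shRNA1 overlapped. Footprints fell by 0.25 on the log2 scale (standard error 0.067, adjusted p = 0.0479). The call was lost without shRNA2 replicate 2 (adjusted p = 0.101), scramble replicate 1 (adjusted p = 0.115) or scramble replicate 2 (adjusted p = 0.121), and with shRNA1 alone (−0.17, adjusted p = 0.272).

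The RNA of Eif3a was the most uneven of the complex. It was 81.5 RPKM in Denr shRNA1 replicate 1 and 108 RPKM in Gfp replicate 1, and 150.1 to 192 RPKM in the other 9 lysates. TE of Eif3a therefore had a standard error of 0.24, and its difference of −0.17 could not be told from 0 (adjusted p = 0.999). Whether the RNA-seq library of Denr shRNA1 replicate 1 had a part in this was not tested beyond leaving it out.

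Across eIF3 as a whole, CDS footprints were below control in 13 of 13 subunits, with a median of −0.075, and 48.1% of all genes were below 0. Between the 2 controls, where no Denr shRNA is involved, 13 of 13 were likewise lower with Gfp than with scramble shRNA, with a larger median of −0.096. Only Eif3a passed the test of knockdown against control, and over 22 alternative fits 11 to 13 of the 13 were below 0. In RNA 6 of the 13 were below 0, with a median of 0.0018, and in TE 11 of 13, with a median of −0.070. In eIF2 all 4 genes had lower footprints (−0.16 to −0.12) and lower RNA (−0.13 to −0.070), none past the test. The 5 eIF2B subunits were divided, from −0.21 (Eif2b3) to 0.19 (Eif2b2) in footprints and from −0.20 (Eif2b1) to 0.20 (Eif2b2) in RNA. In eIF4 7 of 11 were below 0 in footprints with a median of −0.068, and Eif5a2, at 7.12 RPKM of RNA in control and 9.30 RPKM in knockdown lysates, differed by 0.37 in RNA (adjusted p = 0.226) and 0.33 in footprints (adjusted p = 0.176).

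The count of factors with changed footprints depended on single lysates and on the choice of control. It was 2 with all lysates, 10 without Gfp replicate 2 (18.5% of all genes called), 4 without Denr shRNA1 replicate 1 (8.12%), 1 without shRNA2 replicate 2 (5.91%) or scramble replicate 2 (4.94%) and 0 without scramble replicate 1 (4.60%). With scramble shRNA alone as control it was 16, which then included Eif3a, Eif3e, Eif3f, Eif3h, Eif3j1 and Eif3l, and 25.2% of all genes were called. With all lysates 10.0% of all genes were called. The count of factors thus moved in the same direction as that of all genes, except without Denr shRNA1 replicate 1, where it rose while the share of genes fell. For RNA it was 2 with all lysates, 4 without Denr shRNA1 replicate 1 (4.90% of all genes), 1 without shRNA1 replicate 2 or 3, shRNA2 replicate 3, Gfp replicate 2 or scramble replicate 3, and 0 without shRNA2 replicate 2, scramble replicate 1 or scramble replicate 2, with 1.32 to 3.73% of genes called in these 8 fits.

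The 2 Denr shRNAs and the 2 controls were also compared with each other, in a fit that gave each shRNA its own mean. Between Denr shRNA2 and shRNA1, 0 of the 43 factors were called in RNA, CDS footprints or TE by limma, while 2.06%, 9.69% and 0.0% of all genes were called. At an unadjusted p below 0.05 there were 3, 4 and 0 of them, and 13.6%, 19.7% and 3.73% of genes. Between Gfp and scramble shRNA, 0 were called in RNA and TE (0.704% and 0.0% of genes) and 3 in CDS footprints, where 8.48% of genes were called and 3.1% were lower with Gfp shRNA. At an unadjusted p below 0.05 there were 0 in RNA, 11 in CDS footprints and 2 in TE, and 9.69%, 22.5% and 2.22% of genes. CDS footprints were lower with Gfp shRNA in 38 of the 43, with a median of −0.11 (0.016 over all genes), against 33 of 43 and −0.073 for knockdown against control. These 3, Eif1, Eif1a and Eif3l, were lower with Gfp shRNA, by −0.47, −0.32 and −0.23. The difference between the 2 controls was thus, for these factors, as large as those between knockdown and control.

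Footprints on the 5′ UTR were read as a measure of uORF translation. The filter asked for 20 or more such reads in 9 or more of the 11 RPF-seq libraries, which 23 of the 43 factors met (53.5%) and 5175 of all genes (49.2%). Of the 23, 12 had an AUG uORF in the GENCODE transcript and 11 had none there. All 8 factors of start codon selection and subunit joining were among them, but only 5 of 13 eIF3 subunits and 1 of 5 eIF2B subunits. The 5′ UTR of Eif3f was listed at 0 in all 22 libraries, RNA-seq included, so that nothing can be said of its translation. Eif4a1, with an annotated 5′ UTR of 16 nt, had at most 2. The 20 factors without coverage were not tested.

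Relative 5′ UTR translation, the ratio of footprint RPKM on the 5′ UTR to that on the CDS, varied widely in control cells. On the log2 scale it was −7.49 ± 0.20 (SD, n = 5) in Eif4e and −4.76 ± 0.46 in Eif1, where 5′ UTR footprints per length were scarce beside those of the CDS. The 5′ UTR behind the deposited values was 1124 nt long in Eif4e and 418 nt in Eif1. Their GENCODE transcripts have 145 and 245 nt. Since RPKM is per length, these low ratios depend in part on the region that was counted. It was near or above 0 in 4 factors. Eif5, whose product triggers GTP hydrolysis on eIF2, had −0.22 ± 0.14, Eif1ad, a relative of eIF1A by its domain, 0.0024 ± 0.22, Eif4g3 0.51 ± 0.25 and Eif4g2 0.68 ± 0.31. In Eif4g2 the 5′ UTR carried 493 ± 98.1 RPKM of footprints against 304 ± 35.8 RPKM on the CDS that follows its GUG.

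After Denr knockdown 5′ UTR footprints were higher in 23 of 23 factors, by a median of 0.32, and relative 5′ UTR translation in 23 of 23, by a median of 0.39. The medians over the 5175 genes with coverage were 0.30 and 0.33. The test was passed by 1 of the 23 in 5′ UTR footprints (Eif6) and by 3 in relative 5′ UTR translation (Eif1ad, Eif3a and Eif6), against 23.1% (23.0% higher) and 18.1% (18.1% higher) of genes. The rise in the factors was therefore that of the covered genes at large. RNA-seq showed no such shift: the ratio of 5′ UTR to CDS in RNA was above 0 in 11 of the 23, with a median difference of −0.018.

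**Figure D4:**
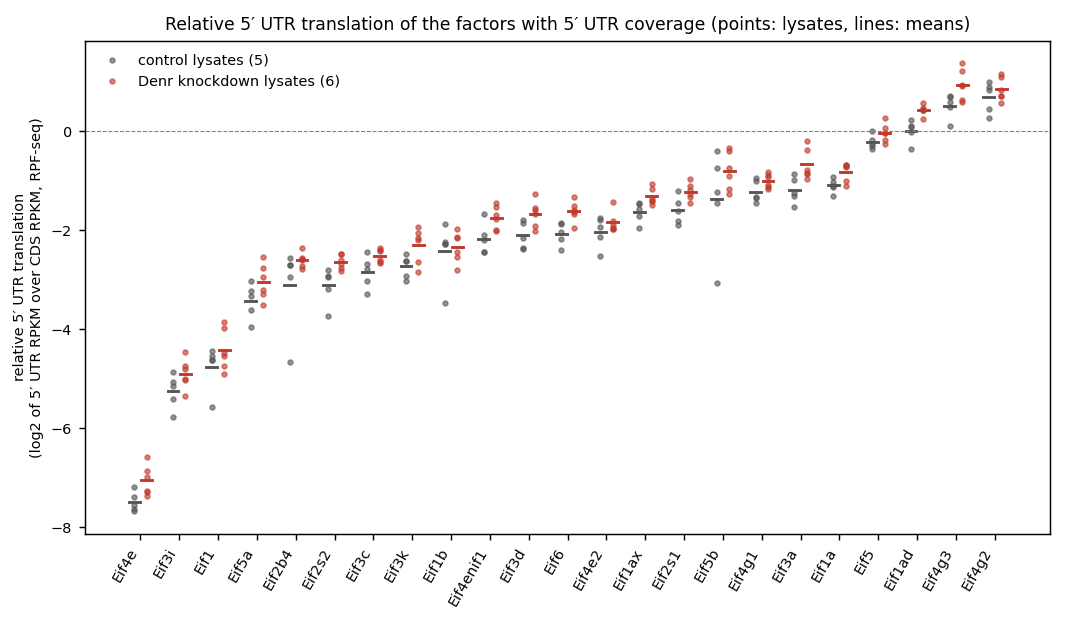
Relative 5′ UTR translation (log2 of footprint RPKM on the 5′ UTR over that on the CDS) of the 23 factors with 5′ UTR coverage, for 5 control and 6 Denr knockdown lysates (points) with their means (lines), ordered by the control mean. The knockdown mean lies above the control mean in 23 of 23 factors, while the points of most factors overlap.

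In Eif1ad (chromosome 19, 5366741 to 5371526, plus strand), which has 3 uORFs of 60 to 90 nt, the log2 ratio was −0.015, 0.095 and 0.084 with scramble and −0.37 and 0.21 with Gfp shRNA. It was 0.25, 0.42 and 0.46 with shRNA1 and 0.42, 0.56 and 0.43 with shRNA2. All knockdown lysates lay above all controls, as in 4.83% of covered genes. The ratio rose by 0.42 (standard error 0.15, adjusted p = 0.0845). The 5′ UTR thus went from about as many footprints per length as the CDS to more, and its CDS footprints (88.4 ± 4.67 RPKM, n = 5, and 84.4 ± 5.26 RPKM, n = 6, SD) did not change past the test (adjusted p = 0.504).

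Eif3a has no AUG uORF in its annotated transcript. Its log2 ratio was −1.26, −0.996 and −1.53 with scramble, −1.31 and −0.88 with Gfp shRNA, −0.85, −0.37 and −0.86 with shRNA1 and −0.78, −0.20 and −0.97 with shRNA2. It rose by 0.52 (standard error 0.18, adjusted p = 0.0860), with 5 of 6 knockdown lysates above all controls, while 5′ UTR footprints alone differed by 0.27 (adjusted p = 0.247) and its CDS footprints fell, as above. The rise was smaller, 0.25 (adjusted p = 0.482), when 5′ UTR footprints were divided by 5′ UTR RNA instead.

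Eif6 (chromosome 2, 155819832 to 155826925, minus strand) encodes a factor that keeps free large subunits from joining small ones. It has a long 5′ UTR of 492 nt with no AUG uORF. Its 5′ UTR footprints were 82.2, 72.4 and 61.9 RPKM with scramble, 54.1 and 74.98 RPKM with Gfp shRNA, 94.6, 94.1 and 106 RPKM with shRNA1 and 96.8, 88.4 and 72.0 RPKM with shRNA2, and all knockdown lysates but shRNA2 replicate 3 were above all controls. They rose by 0.42 (standard error 0.15, adjusted p = 0.0779). Relative to the CDS the log2 values were −1.89, −2.03 and −2.18, −2.40 and −1.86, −1.52, −1.63 and −1.33, and −1.60, −1.67 and −1.97 in the same order, a rise of 0.45 (standard error 0.17, adjusted p = 0.0926).

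The 3 factors whose 5′ UTR was called thus include 1 with AUG uORFs and 2 without. Over the 23, the median rise was 0.38 in the 12 with an AUG uORF and 0.43 in the 11 without. uORFs were sought in 1 transcript per factor, while footprints were often counted on a 5′ UTR of another length. Eif4e (145 nt searched, 1124 nt counted) and Eif2b4 (32 and 526 nt) are examples classed as without. The 2 classes may thus be mixed. Eif2s2, with the short uORF printed above, differed by 0.48 (standard error 0.19, adjusted p = 0.104) and Eif1 by 0.34 (standard error 0.25, adjusted p = 0.301). uORFs that start at other codons than AUG were not analysed here.

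The 5′ UTR calls moved with single RPF-seq libraries. They were more numerous with the replicate number as a block, in the factors and in the covered genes alike, as given below. Gfp replicate 1 held the lowest relative 5′ UTR translation of the 11 lysates in 14 of the 23 factors and in 42.7% of covered genes. The count of 3 was 8 without Gfp replicate 2 (34.3% of covered genes called), 1 without Denr shRNA1 replicate 1 (11.2%) or scramble replicate 3 (10.5%), and 0 without shRNA1 replicate 2 or 3, shRNA2 replicate 2, Gfp replicate 1 or scramble replicate 1 (0.734 to 7.94%). The count of 1 in 5′ UTR footprints was 4 without Gfp replicate 2 (33.7%) or scramble replicate 2 (26.7%), 2 without shRNA2 replicate 3 (23.1%), and 0 without any of the 3 replicates of shRNA1, shRNA2 replicate 2, Gfp replicate 1 or scramble replicate 3 (7.40 to 19.9%). With either Denr shRNA alone 0 factors were called for relative 5′ UTR translation, and at most 0.174% of covered genes. Of the single calls in relative 5′ UTR translation, that of Eif6 was kept without shRNA2 replicate 3 or Gfp replicate 2 and lost when any other lysate was left out (highest adjusted p = 0.204). Eif1ad was lost without shRNA1 replicate 2 or 3, shRNA2 replicate 1 or 2, Gfp replicate 1 or scramble replicate 1 (highest adjusted p = 0.182). Eif3a was lost when 1 of the shRNA1 lysates, shRNA2 replicate 2, Gfp replicate 1 or scramble replicate 1 or 3 was left out (highest adjusted p = 0.181).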

How the data were processed

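Footprints (RPF-seq) and RNA (RNA-seq) of 11 NIH3T3 lysates were analysed from the RPKM values of CDS and 5′ UTR that the authors deposited for each gene and library. According to the submitters' processing notes and the study's methods, reads were trimmed with Cutadapt and aligned with Bowtie2 (version 2.2.1) and TopHat2 (version 2.0.11) to GRCm38, expressed isoforms were found with Cufflinks (version 2.2.1), footprints were assigned by their A-site, ambiguous reads went to the CDS before the 5′ UTR, genes with few reads were removed, and edgeR's upper-quartile normalization was applied to each assay separately. RPKM values of a library and gene were whole multiples of the worth of 1 read, within a tolerance of 0.001 reads, for all 231352 CDS and 222354 5′ UTR values above 0, and the recovered reads gave depth and the filter on 5′ UTR coverage.

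The members and gene lists were chosen with earlier results of these data known. Knockdown (6 lysates) and control (5) were compared on log2(RPKM + 0.1), which understates changes of low genes, with no further filter. limma 3.58.1 (lmFit, eBayes with trend) in R 4.3.3 was fitted on all genes, with Benjamini-Hochberg adjustment and a threshold of 0.1. TE was RPF-seq minus RNA-seq of a lysate, relative 5′ UTR translation 5′ UTR minus CDS in RPF-seq. Single values were tested over all 462 splits of the lysates. The TE fit was also run on simulated reads whose noise was independent between lysates. That run cannot speak to shared deviations of lysates or to a library that stands apart. Replicates were separate dishes, so p-values measure the spread between dishes handled alike. Members past the threshold in any measure were named with each lysate's value, and in each group those with the lowest and highest p in TE and with the most and least RNA.

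uORFs and start codons came from GENCODE vM21 (the transcript with the longest CDS), transcription starts from RefSeq (GRCm38.p6). Symbols were found for 10505 of 10516 identifiers. The fits were repeated with a pseudocount of 0.01 or 1, without genes under a mean CDS RPKM of 1, with each library centred on its median, with eBayes but no trend, with 1 of the Denr shRNAs or with scramble shRNA as the only control, with the replicate number as a block, without each lysate in turn, with Denr shRNA1 replicate 1 and scramble replicate 3 left out together, with voom on the recovered reads, with an interaction term over the 22 libraries, and for 5′ UTRs an RPKM of at least 1 or division by 5′ UTR RNA. Python 3.11.15 with numpy 2.4.6, pandas 2.3.3, scipy 1.17.1 and matplotlib 3.10.9 was used for the rest.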

Additional observations from a re-analysis of the deposited data

Results flagged for a closer look

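Of 30 sets of lysates examined for a lysate far from the others, 2 had one, where chance gives about 1 in 20. The log2 TE of Eif1a was 1.13 in Denr shRNA1 replicate 1, well apart from the remaining 5 lysates with Denr shRNAs. That RNA-seq library also stood apart for other factors. The log2 RNA level of Eif3f in Gfp replicate 1, 7.98, lay far above the other 4 controls, and without this lysate the adjusted p of Eif3f RNA was 0.0420 and that of its TE 0.0739.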

How the results depend on the processing

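The directions of the 9 called changes held in every alternative, while their calls did not. Leaving out lysates moved the count of factors between 0 and 4 for RNA, 0 and 10 for CDS footprints, 0 and 1 for TE, 0 and 4 for 5′ UTR footprints and 0 and 8 for relative 5′ UTR translation. With libraries centred on their median, 1 factor was called for RNA and 0 for TE. With Denr shRNA1 alone the counts were 0 for RNA, 1 for CDS footprints, 0 for TE and 0 for relative 5′ UTR translation, and with shRNA2 alone 4 for CDS footprints and 0 for TE and both 5′ UTR measures. With scramble shRNA alone as control they were 16 for CDS footprints and 1 for relative 5′ UTR translation. voom on the recovered reads gave 3 for 5′ UTR footprints, a 5′ UTR RPKM of at least 1 gave 3 for 5′ UTR footprints and 0 for relative 5′ UTR translation, and division by 5′ UTR RNA gave 0. The cause was not tested, beyond the smaller number of lysates where some were left out.

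Replicate numbers are shared between groups, but no label says that lysates of a number were handled together. The main fits therefore did not take them as pairs. Deviations of same-numbered lysates correlated at over 0.1 in 13 of 15 pairs for CDS footprints and 10 of 15 for RNA and TE. Their mean correlation was 0.18 for CDS footprints, 0.33 for RNA and 0.23 for TE, against −0.089, −0.16 and −0.11 for lysates of different numbers. Deviations were taken from the mean of each shRNA and so cancel out within it. Positive values for the same number thus push those for different numbers below 0, and the contrast is no separate evidence. Of 11 lysates 9, 7 and 9 correlated best with one of their own number, a hint from the data and not from the design. With the replicate block 5 factors were called for RNA (9.54% of genes), 9 for CDS footprints (18.4%), 9 for 5′ UTR footprints (44.2% of covered genes) and 12 for relative 5′ UTR translation (46.7%), and the block kept the TE count at 1. Between the 2 Denr shRNAs the block gave 3 for RNA and 4 for CDS footprints, and between the controls 5 for CDS footprints.

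Eif2b5 TE turned to −0.0034 with shRNA1 alone. Eif5a2 TE turned to 0.039 with scramble shRNA alone, to between −0.14 and 0.022 with single lysates left out (0.0056 without shRNA1 replicate 2 and 0.022 without scramble replicate 3) and to 0.048 without that lysate and shRNA1 replicate 1. The 5′ UTRs of 20 factors held too few reads to be tested.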

Other observations

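Proteins that work with the initiation factors were measured beside them. Of a list of 30 partners and regulators, 29 were in the files, and knockdown changed the RNA of 1, the target Denr itself (−2.75, standard error 0.25, adjusted p = 0.000350). CDS footprints fell in 5, Denr, the poly(A)-binding proteins Pabpc1 (−0.42, adjusted p = 0.00585) and Pabpc4 (−0.45, adjusted p = 0.00325), the helicase Dhx29 (−0.25, adjusted p = 0.0518) and Eif2d (−0.20, adjusted p = 0.0616). TE fell in 1, Pabpc4 (−0.46, adjusted p = 0.0478). All p are from limma's test. Relative 5′ UTR translation rose in 4 of the 21 with coverage, Gigyf2 (1.03, adjusted p = 0.0269), Ddx3x (0.84, adjusted p = 0.0534), Ppp1r15b (0.45, adjusted p = 0.0860) and Pabpc4 (0.47, adjusted p = 0.0940). This was close to the 18.1% of covered genes called higher. Among all genes 3.55% were called for RNA, 4.55% for lower CDS footprints and 0.475% for TE.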
